A study of Mus musculus with 9 samples.

Results

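The genes described here are 37 genes of the lysosome, chosen by name: proteases, glycosidases, lipid-handling proteins, membrane proteins, 2 further luminal proteins and the transcription factor Tfeb. A member was measured by the probe sets that name it and no other gene, and 36 of the 37 had such a probe set (79 of the 45101 probe sets on the array, which name 18162 genes in all). Cd63 was not analysed here. The RNA was from mouse ovarian surface epithelial (MOSE) cells in culture, which came from C57BL6 mice and became transformed on their own over the passages, at 3 stages with 3 Affymetrix Mouse Genome arrays each. MOSE-E cells (passages 13, 14 and 15) are labelled non-malignant, MOSE-I cells (passages 63, 71 and 73) intermediate and MOSE-L cells (passages 136, 142 and 143) malignant, and replicates 1, 2 and 3 of a stage follow this order. All were grown in high-glucose medium with fetal bovine serum, insulin, transferrin and selenite. The cells are 1 series followed through passages, so that stage and time in culture cannot be told apart, and the p-values measure the spread between cultures of that series and not between independent lines.

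Lysosomes are acidic organelles in which hydrolases break down proteins, glycans and lipids delivered by endocytosis and autophagy. Most of these hydrolases are made as precursors, tagged with mannose 6-phosphate and carried from the Golgi by receptors, while heavily glycosylated proteins such as LAMP1 and LAMP2 line the limiting membrane and a proton pump, the V-ATPase, keeps the lumen acidic. Many genes of the lysosome share a short palindromic promoter element, which the transcription factor TFEB and its relatives TFE3 and MITF bind. Cathepsins and legumain, the proteases of this compartment, are also known for their secretion by tumour cells.

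The core of that element, CACGTG, was looked for in the RefSeq promoters of the members (assembly GRCm38.p6, from 250 bases before to 50 bases after each annotated start). It is its own reverse complement, so that a match counts for both strands, and it lies inside the longer palindrome TCACGTGA, so that every match to the longer letters is also one to the core. Of the 34 members with a promoter entry, 12 (35.3%) held CACGTG at 1 or more of their starts, against 8.09% of all 27025 genes in the table, and 5 (14.7%) held TCACGTGA, against 1.12% of all genes. By promoter, 30.0% of the members' 40 windows held CACGTG and 12.5% held TCACGTGA, against 7.15% and 0.974% of all 32851 windows. The 5 genes with the longer palindrome were Cln3, Ctsa, Ctsd, Gla and Mcoln1. Among members called higher in MOSE-L than MOSE-E cells, 7 had an entry and 4 of them held the core, and their stretches of 120 bases are shown because the same genes carry the expression results below. The motif is in capitals, TCACGTGA where the longer palindrome is present and CACGTG otherwise. The stretch of Gla (chrX:134601136-134601255, minus strand) begins 250 bases before its start, and those of Ctsa (chr2:164833673-164833792, plus strand), Glb1 (chr9:114400978-114401097, plus strand) and Lgmn (chr12:102439073-102439192, minus strand) begin 100 bases before 1 of the annotated starts of the gene.
Gla: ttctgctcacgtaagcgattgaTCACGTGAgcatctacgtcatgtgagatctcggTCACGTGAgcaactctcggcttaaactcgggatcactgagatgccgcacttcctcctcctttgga
Ctsa: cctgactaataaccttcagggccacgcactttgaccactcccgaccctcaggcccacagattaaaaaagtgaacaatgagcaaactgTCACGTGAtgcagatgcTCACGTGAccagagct
Glb1: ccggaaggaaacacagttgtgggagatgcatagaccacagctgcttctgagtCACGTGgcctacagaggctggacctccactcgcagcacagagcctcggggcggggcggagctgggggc
Lgmn: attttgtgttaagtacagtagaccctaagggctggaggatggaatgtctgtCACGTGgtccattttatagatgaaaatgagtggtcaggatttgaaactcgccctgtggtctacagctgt
Gla and Ctsa each held the longer palindrome at 2 places, and Glb1 and Lgmn each held the core at 1 place, 48 and 49 bases before the start. A match of letters describes the window and is not a measurement of binding. The element is known from lysosomal genes and the members were chosen as such, so their higher share is no result of these arrays.

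The deposited signals are intensities in arbitrary units, and the precision is limited by the 3 arrays per stage. Of the 36 members with a probe set, 30 reached a signal over 500 on at least 1 of the 9 arrays and were tested, together with 7951 genes in all, by 1 linear model of log2(signal + 50) in limma. Its p-values were adjusted by Benjamini-Hochberg over the 13845 probe sets in the model. A call required an adjusted p no higher than 0.05 together with a log2 change no smaller than 1 in size, on a scale that understates the change of dim genes. MOSE-L replicate 3 stood apart in the 3'/5' ratio of the Actb control probe sets, a sign of RNA or labelling quality, at 1.83 against 1.12 to 1.45 on the other 8 arrays. The ratio also moved with the stages, from 1.12 to 1.25 on the MOSE-E, 1.31 to 1.38 on the MOSE-I and 1.34 to 1.83 on the MOSE-L arrays, so that every MOSE-E array was below all later ones, and the part of this in the results was not tested. The Gapdh ratio was 0.727 there and 0.735 to 0.81 on the others, and counts are therefore also given without that array. Below, 3 means in a row follow the order of the stages, from MOSE-E to MOSE-L, each ± the SD of 3 arrays, and a log2 change is given ± its SE. In RNA from whole cultures, more cells that express a gene and more RNA of it per cell cannot be told apart.

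Between the outer stages, of the 30 tested members 9 were called higher in MOSE-L cells (Creg1, Ctsh, Lgmn, Npc2, Ctsb, Gla, Psap, Ctsa and Glb1) and 0 lower in limma, while 8.11% of all tested genes were called higher and 7.5% lower. A further 8 members passed the adjusted p with changes below 1. Without a minimum change 17 members were thus higher, against 14.4% of all tested genes higher and 13% lower. At an unadjusted p under 0.05 23 members were higher and 1 lower, Ctsc, and the share of all tested genes was not computed there. The methods' t-test, with a fold over 2 on linear signals, called 6 members higher and 0 lower without adjustment, against 6.41% and 7.07% of all tested genes. Lgmn, Ctsb and Psap were not among the 6 (unadjusted p = 0.0537, 0.0684 and 0.0578 in that test). The log2 change was positive in 28 members and negative in 2, Scarb2 and Ctsc, with a median of 0.84 over the 30 members and 0.03 over all tested genes. Of the positive ones Idua and Neu1 passed the filter only through MOSE-L arrays, which favoured that sign against either earlier stage. Ctsk, highest in MOSE-E cells, stayed under the filter. In 22 members every MOSE-L array lay above every MOSE-E array, and in 1, Ctsc, every MOSE-L array lay below, whereas this was so for 23.1% and 21.7% of all tested genes. Summed over the 36 members, signals ran from 78464 to 89981 on the MOSE-E arrays, from 95399 to 108890.0 on the MOSE-I arrays and from 140400.0 to 214100.0 on the MOSE-L arrays, so that the 3 stages did not overlap.

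The difference from MOSE-E cells was unequal among the MOSE-L arrays. Against the MOSE-E mean, the median log2 difference of the 30 members was 0.49 on replicate 1, 0.70 on replicate 2 and 1.26 on replicate 3, where the median over all genes was 0.03 on each of the 3 arrays. Members above the MOSE-E mean numbered 27, 27 and 29 on these arrays, so that the direction was shared while the size was not. MOSE-L replicate 3 held the highest of the 9 signals in 23 of the 30 members, and in 22.6% of all tested genes. Without this array 6 members were called higher, where 6.96% of all tested genes were. The median change of the members was then 0.64, and the calls of Ctsa, Psap and Glb1 were lost at changes of 0.92, 0.84 and 0.88. The highest Actb 3'/5' ratio was on the same array. Without MOSE-L replicate 1, in contrast, 14 members were called higher, where 8.98% of all tested genes were. The share of all genes thus moved in the same direction as the count of members.

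**Figure D1:**
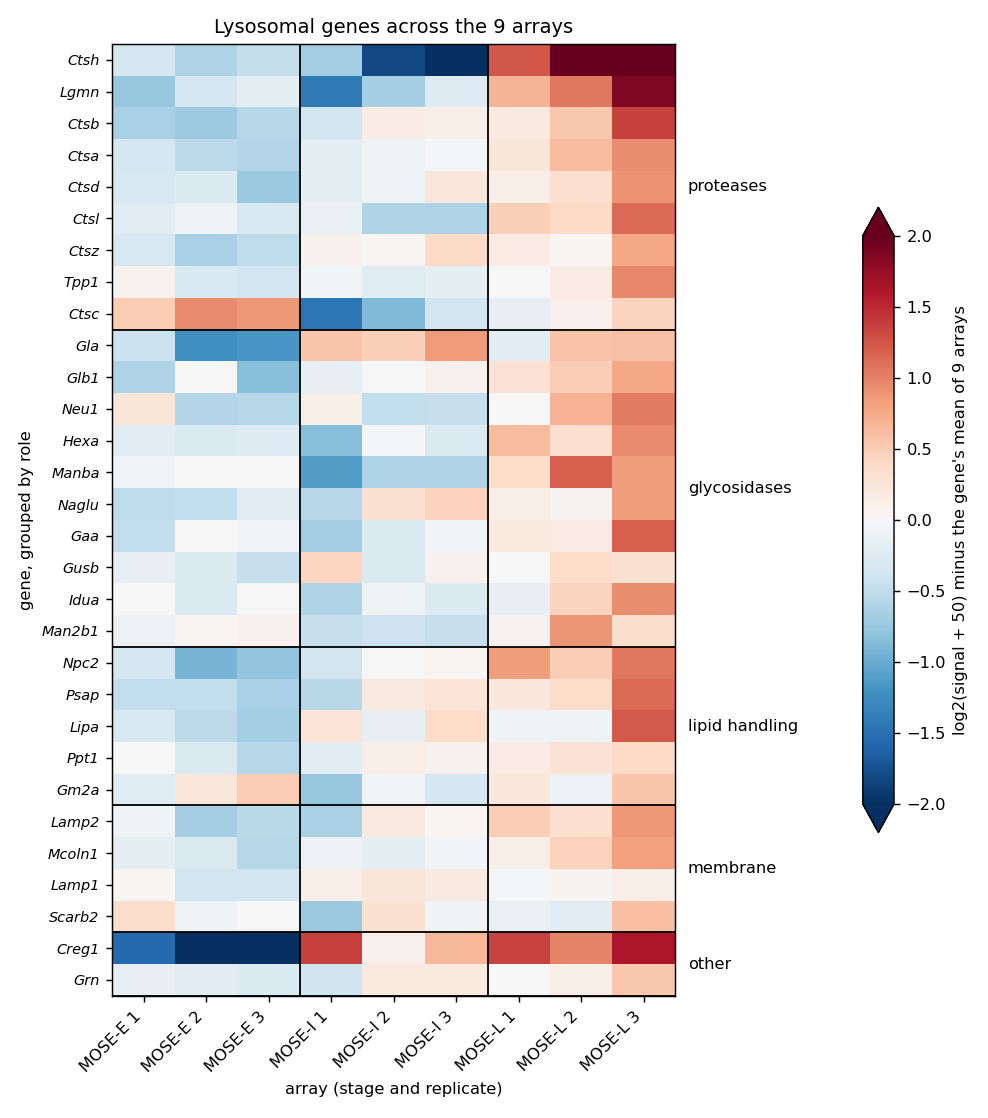
Heat map of the 30 tested members (rows, grouped by role) on the 9 arrays (columns, stage and replicate), where colour is log2(signal + 50) minus the gene's mean over the 9 arrays. The scale stops at -2 and 2, so that stronger values of Ctsh and Creg1 are cut off. Red fills most of the MOSE-L columns and is deepest in replicate 3, the highest array for 23 of the 30 members, while Ctsc is red in the MOSE-E columns.

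MOSE-I cells stood between the other stages in the sum but changed few members. Against MOSE-E cells 2 members were called higher, Creg1 and Gla, where 2.29% of all tested genes were, and 1 was called lower, Ctsc, where 3.61% were. The median change of the members was 0.26, with 19 positive and 11 negative. From MOSE-I to MOSE-L cells 6 members were called higher (Ctsh, Lgmn, Manba, Ctsl, Ctsc and Hexa), against 7.38% of all tested genes, and 0 lower, against 6.04%, with 28 of the 30 changes positive and a median of 0.62. At an unadjusted p under 0.05 the latter comparison had 18 higher and 0 lower in limma, and the methods' t-test also called 0 lower. The share of all tested genes at that unadjusted p in limma was not computed. At the adjusted p without a minimum change 9 members were higher in that comparison, against 13.1% of all tested genes. Each comparison shares 1 stage with each of the others, so that their values are not independent. Without MOSE-L replicate 3 the count from MOSE-I to MOSE-L was 3, and without replicate 1 it was 10. Of all tested genes 4.99% and 10.3% were then called higher.

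The proteases had the most calls. Of 12 listed, 9 were tested and 4 were called higher in MOSE-L than MOSE-E cells, with a median log2 change of 0.90 and a range from -0.65 to 2.62. Cathepsin H (Ctsh), a cysteine protease that trims peptides from their amino end, gave signals of 517, 416 and 468 on the MOSE-E arrays, 401, 154 and 76.5 on the MOSE-I arrays, and 1651, 4562 and 4036 on the MOSE-L arrays. The MOSE-L arrays lay above all others by a wide margin, and every MOSE-I array lay below every MOSE-E array. The log2 change was 2.62 ± 0.45 (SE, adjusted p = 0.00265 in limma) from MOSE-E to MOSE-L cells and 3.81 ± 0.45 (adjusted p = 0.000513) from MOSE-I to MOSE-L cells. Between MOSE-I and MOSE-E cells it was -1.19 with an adjusted p of 0.11, and without MOSE-I replicate 1, the highest of that stage, -1.68 with an adjusted p of 0.0342. A further tested probe set of Ctsh gave the same calls, but it passed the filter only through MOSE-L arrays, which favoured a rise to that stage.

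Legumain (Lgmn), an endopeptidase that cuts after asparagine and processes cathepsins, gave 741, 999.8 and 1135 on the MOSE-E arrays, 452, 798 and 1068 on the MOSE-I arrays, and 2099, 2719 and 4827 on the MOSE-L arrays. MOSE-E and MOSE-I signals overlapped, and the MOSE-L arrays stood above both. Lgmn rose by 1.63 ± 0.35 on the log2 scale against MOSE-E (adjusted p = 0.00747 in limma) and by 1.98 ± 0.35 against MOSE-I cells (adjusted p = 0.00418). Cathepsin B (Ctsb), an abundant cysteine protease, gave 5207, 4952 and 5515 on the MOSE-E arrays, 6306, 9078 and 8970.4 on the MOSE-I arrays, and 9272, 11983 and 21144 on the MOSE-L arrays. No array of 1 stage reached those of the next, and MOSE-L replicate 3 was the highest. The change between the outer stages was 1.34 ± 0.28 (adjusted p = 0.00671 in limma), while the step from MOSE-I to MOSE-L was 0.73 (adjusted p = 0.0722) on this probe set and 1.54 (adjusted p = 0.00964) on a dimmer one whose means were 181, 168 and 604. The dimmer one passed the filter only through MOSE-L arrays, which favoured a rise to that stage.

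Cathepsin A (Ctsa), a serine carboxypeptidase that also protects β-galactosidase and neuraminidase 1 in a complex, gave 1544, 1361 and 1299 on the MOSE-E arrays, 1725, 1861 and 1955 on the MOSE-I arrays, and 2357, 3071 and 3804 on the MOSE-L arrays. The 3 stages did not overlap. Ctsa had a log2 rise of 1.09 ± 0.20 (adjusted p = 0.0037 in limma) from MOSE-E to MOSE-L cells, and without MOSE-L replicate 3 one of 0.92 (adjusted p = 0.00715), just under the minimum change. Its partners in that complex, Glb1 and Neu1, are described below.

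Cathepsin C (Ctsc), a dipeptidyl peptidase that activates granule proteases of leukocytes, went the other way. Its signals were 590.1, 815 and 772 on the MOSE-E arrays, 115, 192 and 293 on the MOSE-I arrays, and 352, 431 and 557 on the MOSE-L arrays. Each MOSE-E array exceeded every array of the other stages, and each MOSE-L array exceeded every MOSE-I array. Ctsc fell by 1.69 on the log2 scale from MOSE-E to MOSE-I cells (SE 0.29, adjusted p = 0.00867 in limma) and rose by 1.03 from MOSE-I to MOSE-L cells (adjusted p = 0.0257), while the difference between the outer stages was -0.65 with a 95% confidence interval from -1.29 to -0.02 and an adjusted p of 0.117. Its lower call was lost without MOSE-E replicate 2 (adjusted p = 0.0601) or replicate 3 (adjusted p = 0.0579). The later rise was lost without MOSE-I replicate 1 (adjusted p = 0.07) or 2 (adjusted p = 0.0584) and without MOSE-L replicate 2 (adjusted p = 0.0518) or 3 (adjusted p = 0.0805). It was also lost with 200 added (0.71), with quantile normalization (0.89) or median centring (0.99), without the filter (adjusted p = 0.0501) and with only these stages in the model (adjusted p = 0.0653).

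Of the remaining tested proteases, cathepsin L (Ctsl), an endopeptidase of broad specificity, averaged 15509 ± 1240.0 (SD, n = 3), 13257 ± 2650.0 and 29336 ± 8688 over the stages. From MOSE-I to MOSE-L cells it was called at 1.12 on the log2 scale (adjusted p = 0.00706 in limma) and changed by 0.88 (adjusted p = 0.0158) against MOSE-E, below the minimum. Without MOSE-L replicate 3 the former was 0.89 (adjusted p = 0.0136), below the minimum. The aspartic protease cathepsin D (Ctsd) gave 2259, 2328 and 1667 on the MOSE-E and 3112, 3545 and 5309 on the MOSE-L arrays without overlap, a log2 change of 0.90 (adjusted p = 0.0194). Cathepsin Z (Ctsz), a carboxypeptidase, showed 0.82 (adjusted p = 0.0204), its larger step lying between MOSE-E (4428 ± 512) and MOSE-I cells (7049 ± 929), with 8044 ± 2314 in MOSE-L cells. The tripeptidyl peptidase Tpp1 had a log2 change of 0.58 (adjusted p = 0.114) between the outer stages, and a dimmer probe set of it was called from MOSE-I to MOSE-L at 1.27 (adjusted p = 0.00348).

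**Figure D2:**
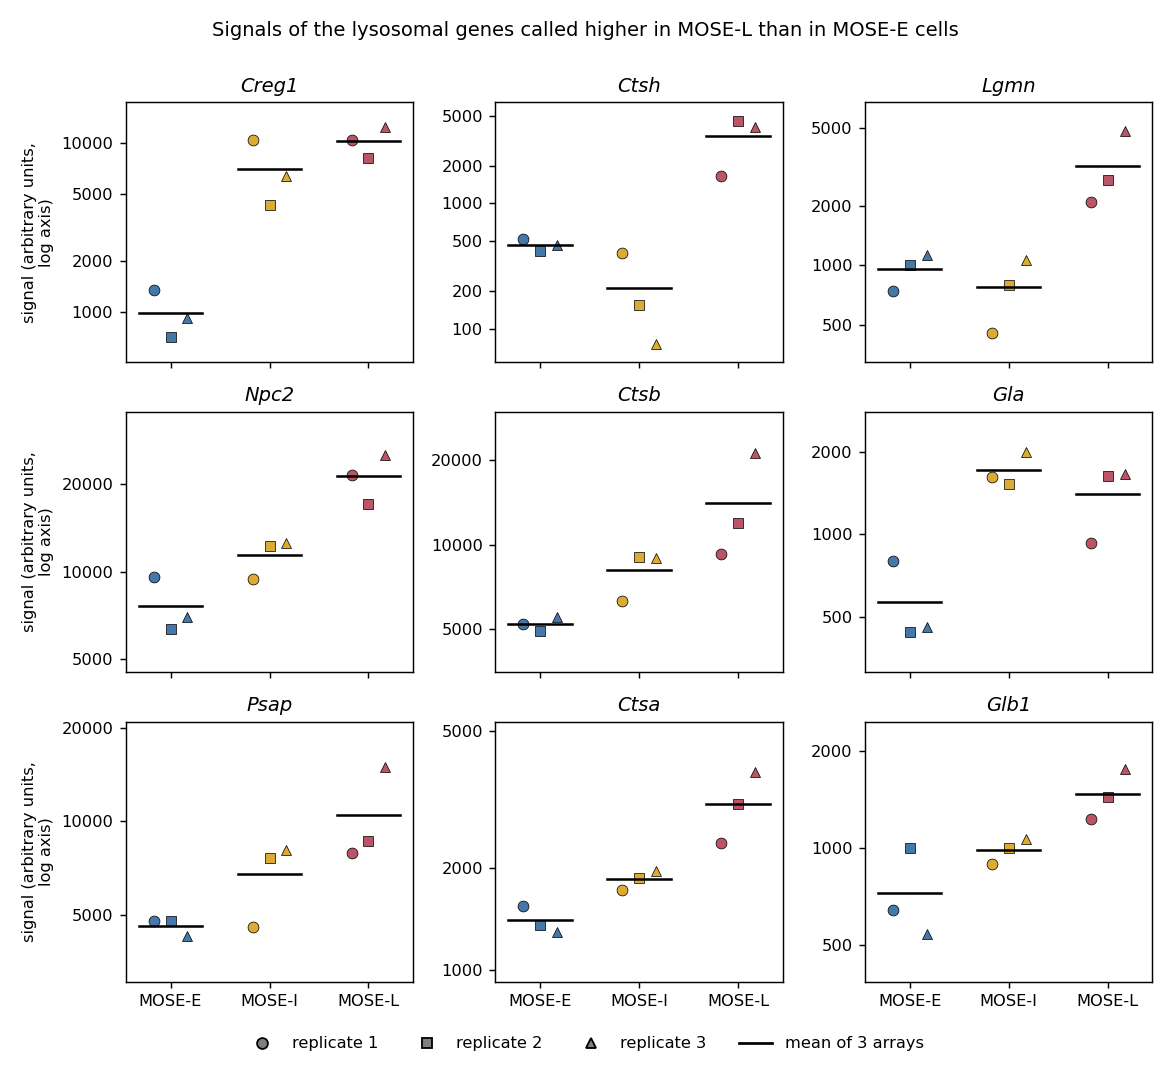
Signals (arbitrary units, log axis) of the 9 members called higher in MOSE-L than MOSE-E cells, with 1 point per array, marker shape for the replicate and a line at the mean of 3 arrays. Creg1 and Gla were already high in MOSE-I cells, Ctsh and Lgmn stood out in MOSE-L cells, and the other 5 had MOSE-I means between those of the outer stages.

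Glycosidases, which take sugars off glycoproteins, glycolipids and glycosaminoglycans from their ends, had changes of 1 sign between the outer stages. All 10 were tested, 2 were called higher in MOSE-L than MOSE-E cells, and all 10 changes were positive, from 0.44 to 1.25 with a median of 0.78. Idua and Neu1 passed the filter only through MOSE-L arrays, which favoured a positive sign in them. The α-galactosidase gene Gla, whose enzyme removes galactose from globosides, gave 797, 439.8 and 458 on the MOSE-E arrays, 1624, 1535 and 2004 on the MOSE-I arrays, and 928, 1642 and 1667 on the MOSE-L arrays. The MOSE-E signals were below all others, and the MOSE-I and MOSE-L signals overlapped. Gla rose by 1.56 ± 0.28 on the log2 scale to MOSE-I cells (adjusted p = 0.00986 in limma) and by 1.25 ± 0.28 to MOSE-L cells (adjusted p = 0.00887), and between these stages it differed by -0.31 (95% confidence interval -0.92 to 0.29). The MOSE-I call was lost without MOSE-E replicate 2 (adjusted p = 0.0645) or 3 (adjusted p = 0.0647) and without MOSE-I replicate 3 (adjusted p = 0.0572).

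The β-galactosidase gene Glb1, whose enzyme degrades gangliosides and keratan sulfate, gave 641, 998 and 540.4 on the MOSE-E arrays, 889.8, 998 and 1071 on the MOSE-I arrays, and 1233, 1440.0 and 1755 on the MOSE-L arrays. MOSE-E replicate 2 lay within the MOSE-I range, and the MOSE-L arrays lay above all others. Its change of 1.00 ± 0.23 from MOSE-E to MOSE-L cells (adjusted p = 0.0106 in limma) just met the minimum. The call was lost without MOSE-E replicate 1 (0.94, adjusted p = 0.0329), MOSE-E replicate 3 (0.83, adjusted p = 0.055) or MOSE-L replicate 3 (0.88, adjusted p = 0.0314), and also with 200 added (0.87) or median centring (0.99). Neuraminidase 1 (Neu1), which removes sialic acid, gave 468, 244 and 245 on the MOSE-E arrays, 429.8, 264 and 270.3 on the MOSE-I arrays and 393, 666 and 853 on the MOSE-L arrays. MOSE-E replicate 1 exceeded MOSE-L replicate 1, and the change of 0.89 had an adjusted p of 0.0669. Without MOSE-E replicate 1 Neu1 was called at 1.16 (adjusted p = 0.0348), and without MOSE-L replicate 1 at 1.18 (adjusted p = 0.0246).

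The hexosaminidase subunit Hexa and the β-mannosidase Manba were called from MOSE-I to MOSE-L cells. Hexa, needed to break down GM2 ganglioside, averaged 2408 ± 57.3 (SD, n = 3), 2236 ± 622 and 4568 ± 972 from the first stage to the last and rose by 1.03 in that step (adjusted p = 0.0128 in limma). Without MOSE-L replicate 3 this was 0.88 (adjusted p = 0.0332), and without MOSE-I replicate 1 it was 0.80 (adjusted p = 0.0359). With 200 added or median centring it was 0.98 and 0.99, just under the minimum. Manba gave 913, 957 and 963 on the MOSE-E arrays, 412, 606 and 605 on the MOSE-I arrays, and 1246, 2249 and 1737 on the MOSE-L arrays. The 3 stages did not overlap, with MOSE-I lowest, and the step from MOSE-I to MOSE-L was 1.58 ± 0.23 (adjusted p = 0.00153 in limma). Against MOSE-E cells both genes passed the adjusted p below the minimum change, Hexa at 0.89 (adjusted p = 0.0203) and Manba at 0.81 (adjusted p = 0.0256). The other 5 glycosidases, Naglu, Gaa, Gusb, Idua and Man2b1, which act on heparan sulfate, glycogen, glucuronides, dermatan sulfate and mannose-rich glycans, had log2 changes between 0.44 and 0.74 from MOSE-E to MOSE-L cells with adjusted p between 0.0851 and 0.237. Man2b1 passed the adjusted p from MOSE-I to MOSE-L cells at a change of 0.88 (adjusted p = 0.0143).

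Among the 5 lipid-handling members, all tested, 2 were called higher in MOSE-L than MOSE-E cells, and the median change was 0.86. Npc2, the soluble carrier that hands cholesterol to the membrane protein NPC1, gave 9613, 6327 and 6988 on the MOSE-E arrays, 9434, 12234 and 12537 on the MOSE-I arrays, and 21637, 17162 and 25368 on the MOSE-L arrays. The MOSE-L arrays stood above all others, and MOSE-E replicate 1 overlapped the MOSE-I range. The log2 rise of Npc2 was 1.48 ± 0.22 (adjusted p = 0.00113 in limma), and its 3 tested probe sets were called between these stages. From MOSE-I to MOSE-L cells the brightest probe set gave 0.90 (adjusted p = 0.0162), below the minimum, while the dimmest was called at 2.17 (adjusted p = 0.000959), with means of 169, 110.2 and 679.9 in the order of the stages. The dimmest passed the filter only through MOSE-L arrays, which favoured a rise to that stage.

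Prosaposin (Psap), the precursor of the saposins that present sphingolipids to hydrolases, gave 4783, 4771 and 4262 on the MOSE-E arrays, 4554, 7629 and 8066 on the MOSE-I arrays, and 7872, 8664 and 14891 on the MOSE-L arrays. The MOSE-L arrays lay above the MOSE-E arrays and overlapped the MOSE-I range. Psap rose by 1.12 ± 0.28 (adjusted p = 0.0151 in limma), and its other tested probe set gave 1.16 (adjusted p = 0.0146). Without MOSE-E replicate 3 the adjusted p was 0.0617, and without MOSE-L replicate 3 the change was 0.84 (adjusted p = 0.0352). The acid lipase Lipa, which frees cholesterol from its esters, gave 665, 576 and 510.2 on the MOSE-E and 797, 793 and 2036 on the MOSE-L arrays, highest on replicate 3, a change of 0.86 (adjusted p = 0.0715). Leaving out MOSE-L replicate 1 gave a call of Lipa at 1.07 (adjusted p = 0.0442), and leaving out replicate 2 one at 1.08 (adjusted p = 0.047). The palmitoyl-protein thioesterase Ppt1 changed by 0.57 (adjusted p = 0.047). The GM2 activator Gm2a, which lifts the ganglioside towards hexosaminidase, changed by 0.06 (95% confidence interval -0.52 to 0.63), and its 2 other tested probe sets had opposite signs, -0.21 and 0.44, neither called. The probe set at 0.44 passed the filter only through a MOSE-L array.

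Membrane proteins of the lysosome had no call in limma by their brightest probe sets, of 7 listed, 6 with a probe set and 4 tested, in any of the 3 comparisons. The methods' t-test gave no call for them either. Lamp2, an abundant membrane glycoprotein that also serves in chaperone-mediated autophagy, gave 5763, 3766 and 4154 on the MOSE-E arrays, 3832, 6871 and 6186 on the MOSE-I arrays, and 8537, 7524 and 11089 on the MOSE-L arrays. The MOSE-L arrays were above all others. Its change of 0.99 ± 0.26 (adjusted p = 0.0201) lay just under the minimum, and of its 4 tested probe sets 2 were called higher, at 1.35 (adjusted p = 0.00368) and 1.04 (adjusted p = 0.0217), and 1 gave 0.58 (adjusted p = 0.239). Without MOSE-E replicate 1 the brightest probe set was called at 1.17 (adjusted p = 0.0178), and without MOSE-L replicate 1 or 2 at 1.02 (adjusted p = 0.033) and 1.11 (adjusted p = 0.0235). The cation channel Mcoln1, which lets calcium out of the lysosome, gave 567, 522 and 418 on the MOSE-E arrays and 706, 906 and 1176 on the MOSE-L arrays, a change of 0.81 (adjusted p = 0.0171). Its arrays did not overlap between these stages.

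Lamp1, the other abundant membrane glycoprotein, gave 7588, 5729 and 5643 on the MOSE-E arrays, 8083, 8756 and 8420.1 on the MOSE-I arrays, and 7248, 7666 and 8099.8 on the MOSE-L arrays. MOSE-E replicate 1 lay inside the MOSE-L range, and the change between the outer stages was 0.29 (95% confidence interval -0.09 to 0.67, adjusted p = 0.236). Scarb2, which escorts glucocerebrosidase to the lysosome, averaged 5278 ± 866 (SD, n = 3), 4555 ± 1605 and 5365 ± 1847 over the stages, a change of -0.02 with a 95% confidence interval from -0.68 to 0.65.

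**Figure D3:**
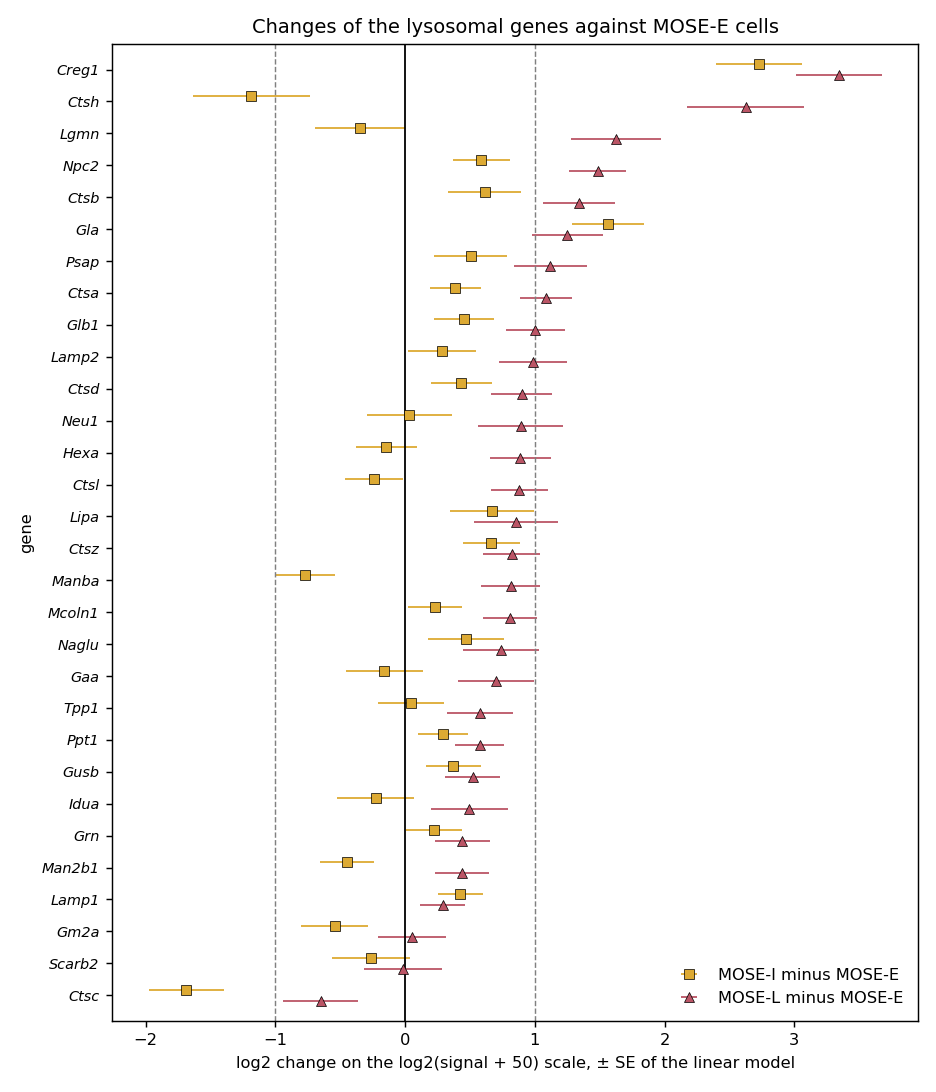
Log2 change of each tested member from MOSE-E to MOSE-I (squares) and from MOSE-E to MOSE-L cells (triangles), on the log2(signal + 50) scale, with bars of 1 SE of the linear model. Dashed lines mark the minimum change of 1 in either direction. Triangles lie right of 0 for 28 of the 30 members, and squares are spread on both sides, with 19 positive and 11 negative.

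Creg1, a secreted and lysosomal glycoprotein linked to growth control and differentiation, had the largest rise of the members from MOSE-E cells. It gave 1349, 707 and 917 on the MOSE-E arrays, 10501, 4298 and 6410.1 on the MOSE-I arrays, and 10415, 8116 and 12463 on the MOSE-L arrays. Signals of the later stages overlapped each other and lay several-fold above the MOSE-E signals. The change was 2.73 ± 0.33 to MOSE-I (adjusted p = 0.00203 in limma) and 3.34 ± 0.33 to MOSE-L cells (adjusted p = 0.000101), and the mean MOSE-L signal was 10.4 times the mean MOSE-E signal. Its other tested probe set rose by 3.71 (adjusted p = 1.26e-05) and was also called from MOSE-I to MOSE-L at 1.01 (adjusted p = 0.0226), where the brightest gave 0.62 (adjusted p = 0.175). Progranulin (Grn), a growth factor precursor that is cut into granulins in the lysosome, averaged 6138 ± 255 (SD, n = 3) in MOSE-E against 8462 ± 1733 in MOSE-L cells, a change of 0.44 (adjusted p = 0.15).

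Of the 37 genes, 6 had a probe set but stayed under 500 on every array and were not tested in the main setting: Ctsf, Ctsk, Ctss, Cln3, Cd68 and Tfeb. They are given by signal, and p-values for them come from the same model fitted without the filter. Cathepsin K (Ctsk), the collagen-degrading protease of osteoclasts and fibroblasts, gave 435, 400.4 and 331 on the MOSE-E arrays, 29.0, 16.1 and 24.5 on the MOSE-I arrays, and 66.8, 52.9 and 151 on the MOSE-L arrays. The MOSE-E arrays stood far above the rest, and without the filter Ctsk was called lower in MOSE-I (log2 change -2.58, adjusted p = 0.0024) and in MOSE-L cells (-1.70, adjusted p = 0.0063). Its MOSE-I signals were all under the added 50 and most MOSE-L signals near it, so that the sizes depend on it. Cathepsin F (Ctsf), a further cysteine protease, gave 8.14, 7.77 and 9.87 on the MOSE-E arrays, 23.3, 14.7 and 70.5 on the MOSE-I arrays, and 175, 85.3 and 238 on the MOSE-L arrays. Its MOSE-E signals were near background, so that the size of the change, 1.82 without the filter (adjusted p = 0.00659), depends on the added 50.

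The battenin gene Cln3, which encodes a membrane protein of the lysosome, averaged 89.2 ± 31.4, 86.9 ± 49.5 and 265 ± 77.8 over the stages, and the MOSE-L arrays did not overlap the others (1.18 without the filter, adjusted p = 0.062). Cd68, a membrane glycoprotein abundant in macrophages, averaged 131 ± 8.95, 216 ± 40.7 and 265 ± 96.4 (adjusted p = 0.136 between the outer stages). Cathepsin S (Ctss), typical of antigen-presenting cells, stayed between 3.19 and 125 on all 9 arrays. Tfeb, the transcription factor of the module, averaged 132 ± 73.2, 178 ± 114 and 174 ± 89.2 over the stages. Its stages overlapped, and the change was 0.27 without the filter (adjusted p = 0.831).

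Other genes of the lysosome, listed by function, gave counts beside the members. The share called higher among all tested genes was 8.11% in MOSE-L against MOSE-E cells, as above, and 4157 of the 7951 changes were positive. That share was 2.29% in MOSE-I against MOSE-E cells and 7.38% in MOSE-L against MOSE-I cells. Of 20 tested other hydrolases 6 (30%) were called higher in MOSE-L than MOSE-E cells and 0 lower, with a median change of 0.69 and with 17 changes positive and 3 negative. The 4 with the largest changes were the arylsulfatases Arsa (1.37, adjusted p = 0.00404 in limma) and Arsb (1.29, adjusted p = 0.00813), the acid nuclease Dnase2a (1.27, adjusted p = 0.00414) and the galactosylceramidase Galc (1.27, adjusted p = 0.012). None was called from MOSE-E to MOSE-I cells (1 lower at an unadjusted p under 0.05), and from MOSE-I to MOSE-L cells 3 were called higher, Galc at 1.58 and, named after their values were seen, Plbd2 at 1.16 and Scpep1 at 1.15. The hydrolase Prcp, named after its values were seen, averaged 802 ± 48.1, 576 ± 51.3 and 401 ± 88.2 over the stages. Its change of -0.94 between the outer stages (adjusted p = 0.00565 in limma) lay just under the minimum in size. Of 15 tested other membrane proteins and transporters 4 (26.7%) were called higher in MOSE-L than MOSE-E cells and 0 lower, with a median of 0.68. These were the calcium channel Tpcn1 (1.80, adjusted p = 0.00273), the cobalamin exporter subunit Lmbrd1 (1.52, adjusted p = 0.00317), the sialic acid exporter Slc17a5 (1.18, adjusted p = 0.0148) and Laptm4b (1.12, adjusted p = 0.0157). Of these Slc17a5 was also called from MOSE-I to MOSE-L cells at 1.19. Of the other hydrolases Acp2, Ctso, Plbd2 and Siae, and of the membrane proteins Npc1 and Slc17a5, passed the filter only through MOSE-L arrays. This favoured a positive sign in them.

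The V-ATPase subunits, which acidify the lumen, shared a positive sign with 1 call. All 15 tested subunits had positive changes from MOSE-E to MOSE-L cells, with a median of 0.69, and 1 (6.67%, under the share of all genes) was called, Atp6v1e1 at 1.24 (adjusted p = 0.00303 in limma). Against MOSE-E cells MOSE-I cells had 2 (13.3%) called higher, where 2.29% of all tested genes were. These were Atp6v1c1 (1.18, adjusted p = 0.00902) and Atp6v1f (1.12, adjusted p = 0.025), which were named after their values were seen. MOSE-E replicate 1 had a median level for this list of 0.01, centred on each gene's mean over the 9 arrays, and the other MOSE-E arrays had -0.61 and -0.53. Of 10 tested genes for sorting to the lysosome 1 (10%, near the share of all genes) was called higher in MOSE-L than MOSE-E cells, the mannose 6-phosphate receptor Igf2r (from 730.3 ± 277 to 2280.2 ± 1182, adjusted p = 0.0182), and the median was 0.56. From MOSE-I to MOSE-L cells Igf2r (1.74) and, named after its values were seen, the sorting receptor Sort1 (1.20, adjusted p = 0.00286) were called. Of all tested genes 7.38% were called higher there. Gnptg, also tested in this list, passed the filter only through a MOSE-L array.

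The relatives of Tfeb and the kinase pathway that controls them had a single call. Of 14 tested genes for MiT/TFE factors and mTORC1 at the lysosome 1 (7.14%, near the 8.11% of all tested genes) was called higher in MOSE-L than MOSE-E cells. This was Fnip1, a folliculin partner (1.21, adjusted p = 0.0144 in limma), and the median change from MOSE-E to MOSE-L cells was 0.14. Tfe3 averaged 807 ± 81.2, 1004 ± 105 and 886 ± 157 (SD, n = 3) in the order of the stages, a change of 0.12 (adjusted p = 0.664) between the outer stages. Mitf stayed between 100.1 and 290.4 on the 9 arrays, with its 3 highest signals on the MOSE-I arrays, and was not tested. Of 15 tested autophagy genes 2 (13.3%) were called higher in MOSE-L than MOSE-E cells, the cargo receptor Sqstm1 (1.75, adjusted p = 0.0106) and the ATG8 homologue Gabarapl1 (1.07, adjusted p = 0.0155). All 15 changes were positive, and the median was 0.59. Ulk1, Vps11 and Atg16l1 passed the filter only through MOSE-L arrays, which favoured a positive sign in them. Gabarapl1 was also called from MOSE-E to MOSE-I cells at 1.10 (adjusted p = 0.031). The cystatins, inhibitors of cysteine cathepsins, had 2 tested genes and no call, with the brightest, Cstb, averaging 12599 ± 1709, 18991 ± 1935 and 13472 ± 1151 over the stages (adjusted p = 0.687 between the outer stages). The other, Cst3, averaged 5538 ± 454, 10694 ± 1304 and 10744 ± 1655, with every later array above every MOSE-E array, and its change of 0.94 passed the adjusted p below the minimum in both MOSE-L (adjusted p = 0.00443) and MOSE-I cells (adjusted p = 0.0132).

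**Figure D4:**
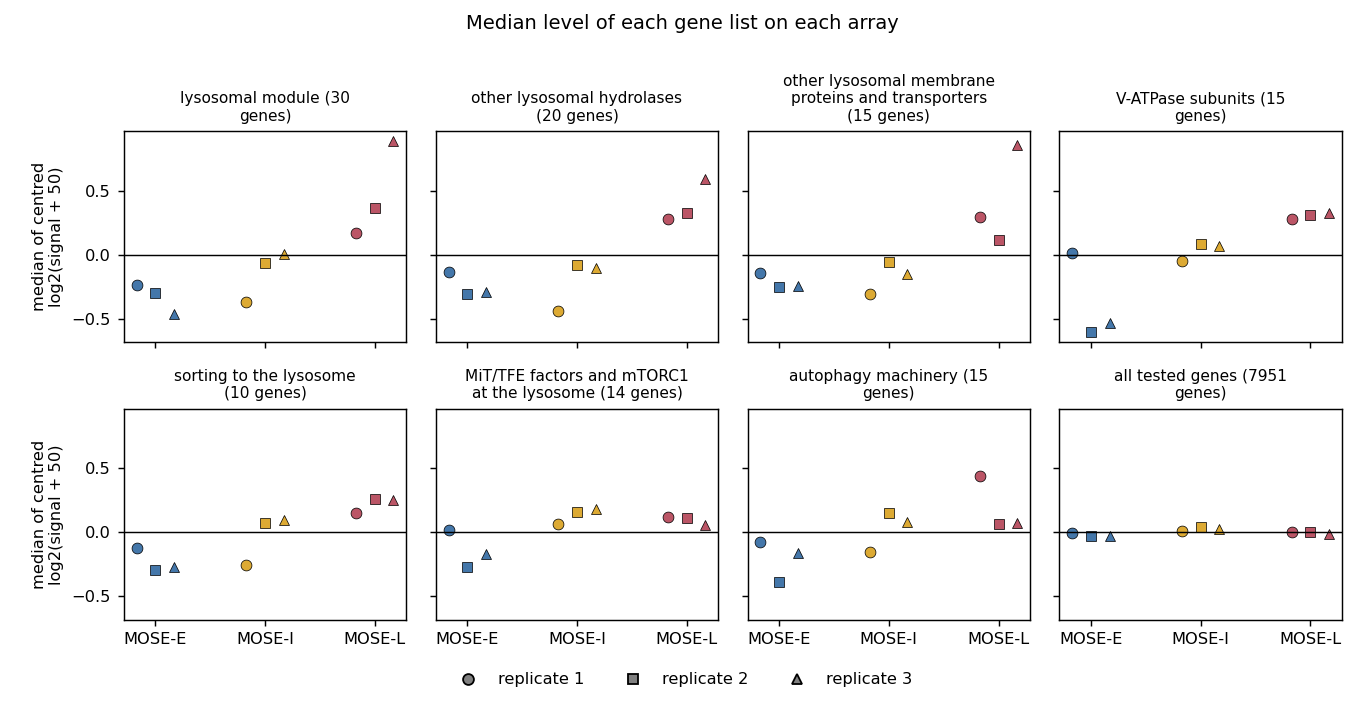
Median level of each gene list on each array, as log2(signal + 50) centred on each gene's mean over the 9 arrays, with 1 point per array and marker shape for the replicate. For the lysosomal module the MOSE-L points are 0.17, 0.36 and 0.89 and the MOSE-E points lie between -0.47 and -0.23, while all tested genes lie near 0 on every array.

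Markers of cell types were read beside these values. Of 10 markers of ovarian surface epithelium 8 passed the filter, with Krt8, Krt18, Krt19, Upk1b, Upk3b, Wt1 and Msln over 500 on all 9 arrays, and Krt7 (-4.29, adjusted p = 0.000182 in limma), Krt8 (-1.47, adjusted p = 0.00538) and Krt19 (-1.11, adjusted p = 0.0142) fell from MOSE-E to MOSE-L cells. Of the other 5 tested, Wt1 (0.94, adjusted p = 0.0327) and Upk3b (0.59, adjusted p = 0.257) had positive changes, and Upk1b (-0.94, adjusted p = 0.0138), Msln (-0.51, adjusted p = 0.279) and Krt18 (-0.41, adjusted p = 0.359) negative ones, none called. From MOSE-E to MOSE-I cells Krt7 (-3.56, adjusted p = 0.0027) and Msln (-2.405, adjusted p = 0.00362) were called lower. From MOSE-I to MOSE-L cells Wt1 (1.09, adjusted p = 0.0201) and Msln (1.90, adjusted p = 0.00421) were called higher and Krt8 (-1.75, adjusted p = 0.00331) lower. Lhx9 and Gata4 stayed under 500 throughout. Since macrophages are rich in lysosomes, 12 of their markers were summed, at 1217 to 1522 on the MOSE-E, 1449 to 2643 on the MOSE-I and 1732 to 2731 on the MOSE-L arrays. The leukocyte marker Ptprc stayed at or below 51.9, Aif1 at or below 44.5 on all arrays, Itgam was at most 73.5, Tyrobp at most 126 and Lyz2 at most 170.4. Cx3cr1, Fcer1g and Adgre1 reached at most 99.7, 152 and 221. Brighter were Laptm5, not tested, at 117 to 413, highest on MOSE-L replicate 3, and Cd14 and Csf1r. Cd14 averaged 506 ± 70.6, 1018.5 ± 260.0 and 815 ± 323, with every MOSE-I array above every MOSE-E array (adjusted p = 0.065) and 0.57 between the outer stages (adjusted p = 0.162), and Csf1r averaged 213 ± 33.2, 439 ± 189 and 192 ± 44.5 (adjusted p = 0.799 between the outer stages). Of the 12 markers 3 were tested and 1 was called higher in MOSE-L cells, Mpeg1, with 110.5, 527 and 475 on the MOSE-L and at most 38.5 on the other arrays. Mpeg1 passed the filter only through a MOSE-L array. The sum of 8 fibroblast markers ran from 30037 to 80175 on the MOSE-E, 16326 to 46937 on the MOSE-I and 36829 to 48514 on the MOSE-L arrays. Col1a1 was called lower in MOSE-L than MOSE-E cells (-2.54, adjusted p = 0.00172 in limma) and Dcn higher (2.19, adjusted p = 0.0101). Pdgfra (1.53, adjusted p = 0.109), Col3a1 (-1.04, adjusted p = 0.0938) and Pdgfrb (-0.27, adjusted p = 0.594) were tested and not called there. Pdgfrb was called higher in MOSE-I than MOSE-E cells (1.74, adjusted p = 0.0158) and lower from MOSE-I to MOSE-L cells (-2.01, adjusted p = 0.00408). Col1a1 (-1.66, adjusted p = 0.0308) and Col3a1 (-1.515, adjusted p = 0.0484) were called lower in MOSE-I than MOSE-E cells. Summed markers of endothelium (5 genes) were at most 479.5 and those of granulosa cells (4 genes) at most 866 on any array, and none of these genes passed the filter. The part of cells that express Mpeg1, Cd14, Laptm5, Dcn, Pdgfra or Pdgfrb in the values of the members was not tested.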

How the data were processed

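The 9 arrays were grouped by their labels into 3 stages of 3. The deposited values are intensities that the authors obtained with MicroArray Suite 5.0, on a linear scale and set to a trimmed mean of 500 per array. Detection calls were not used here. Median signals per array were 93.2 to 130.0, with 10105 to 11135 probe sets over 500, and 32.4% of all signals were under the added 50.

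A single gene was named by 34958 of the 45101 probe sets, more than 1 by 932 and none by 9211. Gene IDs matched 34754 to a gene table of GRCm38.p6. Leaving out 64 control probe sets, those with a highest signal over 500 (13845 probe sets, 7951 genes) were tested on log2(signal + 50) in limma 3.58.1 under R 4.3.3, with 1 mean per stage and variances following the mean signal (6 residual degrees of freedom, prior median 4.9). Each gene took the tested probe set of highest mean signal naming it alone. The filter of 500 and the sizes of the fold and p thresholds are those of the methods, which applied them to linear signals and unadjusted p-values. The code was tested on simulated data. Alternatives were adding 1 or 200 in place of 50, centring arrays on their median or normalizing by quantiles, a filter of 1000 or none, dropping the variance trend, fitting 2 groups at a time, the replicate number as a block, a threshold of 0.01, calls with no fold, the methods' t-test on linear signals, means over probe sets, and omitting each array in turn.

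The 37 members and the lists of other genes and markers were chosen with earlier results of these data known, so their counts are descriptions and no test was made on a list. All members were named, with up to 4 called genes per other list, those that differed most between the outer stages, or the brightest where none was called. Promoter sequences are from RefSeq.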

Additional observations from a re-analysis of the deposited data

How the results depend on the processing

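Between MOSE-L and MOSE-E cells 9 members were called higher, with 7 to 11 under another added value, scaling, filter, variance model or adjusted p, 17 without a minimum fold, and 6 by the methods' t-test unadjusted and 1 adjusted. Of all tested genes that t-test called 6.41% higher unadjusted and 1.16% adjusted. From MOSE-I to MOSE-L cells 6 were called higher, with 4 to 7 under the same choices or as means over probe sets, and 9 without a minimum fold. The t-test adjusted called 0 members higher and 0 lower in MOSE-I than in MOSE-E cells and 0 higher in MOSE-L than in MOSE-I cells. Without the filter 1 member was called lower in MOSE-L cells (Ctsk) and 2 lower in MOSE-I cells (Ctsk and Ctsc), and at a highest signal over 1000, where Ctsc was no longer tested, 0. When single arrays were left out, the comparison of MOSE-L with MOSE-E had 6 to 14 higher and 0 to 0 lower, that of MOSE-I with MOSE-E 1 to 2 higher and 0 to 2 lower, and that of MOSE-L with MOSE-I 3 to 10 higher and 0 to 0 lower. In the same order, the share of all tested genes called higher then ran from 5.81% to 9.03%, 0.402% to 4.14% and 4.99% to 10.3%.

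Of 687 values of single genes under the alternatives in each comparison, 645 kept their side of the threshold between MOSE-L and MOSE-E, 678 between MOSE-I and MOSE-E and 654 between MOSE-L and MOSE-I, and 0 reversed. Correlations of same-numbered deviations ran from -0.11 to 0.41, the highest between replicate 1 of MOSE-E and of MOSE-L. Differently numbered arrays were not compared, so that these values do not settle whether the replicate numbers pair the arrays. With the replicate number as a block the counts stayed at 9 and 0, 2 and 1, and 6 and 0. Over all 7951 genes, 645 were called higher and 596 lower between MOSE-L and MOSE-E cells, against 1148 and 1036 without a minimum fold, 406 and 364 at an adjusted p of 0.01, and 92 and 161 by the adjusted t-test. For MOSE-I against MOSE-E the counts were 182 and 287, against 422 and 389 without a minimum fold, 120 and 232 with 200 added, 50 and 83 at 0.01, 4 and 4 by the adjusted t-test, 32 and 50 when MOSE-E replicate 2 was left out, 34 and 52 for its replicate 3 and 48 and 87 for MOSE-I replicate 3. For MOSE-L against MOSE-I they were 587 and 480, against 1044 and 1119, 274 and 230 at 0.01, and 1 and 4 by the adjusted t-test. The cause of these shifts was not tested. Signals near background limit what can be said of Ctsf, Ctsk, Ctss and Tfeb, whose changes depend on the added value.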
